A study of Mus musculus with 3 samples.

Results

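Npy-positive LApc cells are organoid cells of 1 single-cell library that carried the RNA of neuropeptide Y. They were chosen in steps from the LApc library, which held 10706 cell barcodes. A barcode was used where no other library held the same barcode string, where it had at least 10000 unique molecular identifiers (UMIs, each tagging 1 captured RNA molecule) and where at most 20% of its UMIs came from mitochondrial genes. Of the 2161 deep LApc cells that passed, 179 had at least 5 Npy UMIs and are called Npy-positive, a share of 8.28% (7.16 to 9.53, exact 95% Clopper-Pearson interval). They are 179 of 34185 barcodes in the whole series. They are described against the 1904 deep LApc cells with 0 or 1 Npy UMI, called Npy-low, and the remaining 78 cells with 2 to 4 UMIs were in neither group.

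The series held small intestinal organoids of 3 genotypes on the C57BL/6 strain, with 1 library and 1 mouse per genotype. WT mice were wild type, LApc mice were Lgr5-CreERT2;Apc fl/fl, and LApcL mice carried Lef1 fl/fl in addition (the study gives the full name of the Cre allele as Lgr5-EGFP-IRES-CreERT2). All mice are labelled as given 2 doses of 2 mg tamoxifen at 7 to 8 weeks of age, and the labels place the analysis 29 days later for LApc and 21 days later for WT and LApcL. The Cre recombinase acts in cells that express Lgr5, the marker of crypt base stem cells, so that an LApc culture can also hold cells in which Apc was not deleted, and how complete the deletion was cannot be read from these counts. Organoids were taken at passage 3, day 6, and brought to single cells with trypsin.

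Npy encodes neuropeptide Y, a small secreted peptide made mainly by neurons. Its precursor is cut by prohormone convertases, trimmed, and amidated at its end before it can act on Y receptors. In the intestine, Npy is known from enteric neurons, and its relative Pyy is made by enteroendocrine cells. Apc is part of the complex that marks beta-catenin for destruction. When Apc is lost, beta-catenin stays in the nucleus and switches on Wnt target genes together with Tcf and Lef factors, and several of these targets, such as Axin2, Nkd1, Notum and Wif1, encode brakes on the same pathway.

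The deep cells carried most of the material. Deep LApc cells held 90864428 UMIs, and deep LApcL and WT cells, chosen the same way, numbered 1931 and 1208. All 3 libraries shared 3195 barcode strings, and 27.3% to 30.3% of a library's barcodes occurred in another library, which is why shared barcodes were left out. The Npy-positive cells had a median of 34669 UMIs (12764 to 229541) and 6092 detected genes, against 33864 UMIs (10024 to 309525) and 5830 genes in Npy-low cells. Their mitochondrial share was lower, with a median of 4.09% against 5.80%. Because there was 1 library and the groups were made from a measured gene, no test was run and no p-value is given. The intervals below are exact at the 95% level and cover counting error only, not the spread between cultures or mice.

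Npy itself chose the cells, so its levels are a description. The Npy gene (ENSMUSG00000029819) lies on chromosome 6 from 49822710 to 49829507 on the plus strand of the build GRCm38, which is the mm10 build of the files. Npy-positive cells held 35479 of the 36769 Npy UMIs of the LApc library, which is 96.5%. Per cell they ran from 5 to 2023 UMIs with a median of 38, and as CPM, the count scaled to 1000000 UMIs in the cell, from 63.2 to 68438 with a median of 1258. Most of the RNA lay in few cells: the 66 cells with at least 100 Npy UMIs held 91.8% of the group's Npy UMIs, and 19 cells with at least 500 held 58.0%. At the edge of the rule, 5 cells had exactly 5 UMIs and 7 cells had 4, while 326 cells had 1 and 1578 had 0. No gap separated the classes just inside from those just outside.

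The other libraries and the shared barcodes give the background. No deep WT cell had an Npy UMI, and 0 of 1208 cells allows a share of cells with a UMI of up to 0.248%, taken as 3 counts of the total, or 0.305% by the exact interval. In LApcL, 1 of 1931 deep cells had Npy, with 2 UMIs. Among the shared barcodes of the LApc library, which were shallow (median 1489 UMIs) and mostly carried Pecam1, an endothelial adhesion gene (69.2%), 0.647% had an Npy UMI (0.401 to 0.988). WT, LApc and LApcL each come from 1 mouse and differ in genotype, and LApc also in days after tamoxifen, so that genotype, mouse, day and library cannot be told apart.

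**Figure D1:**
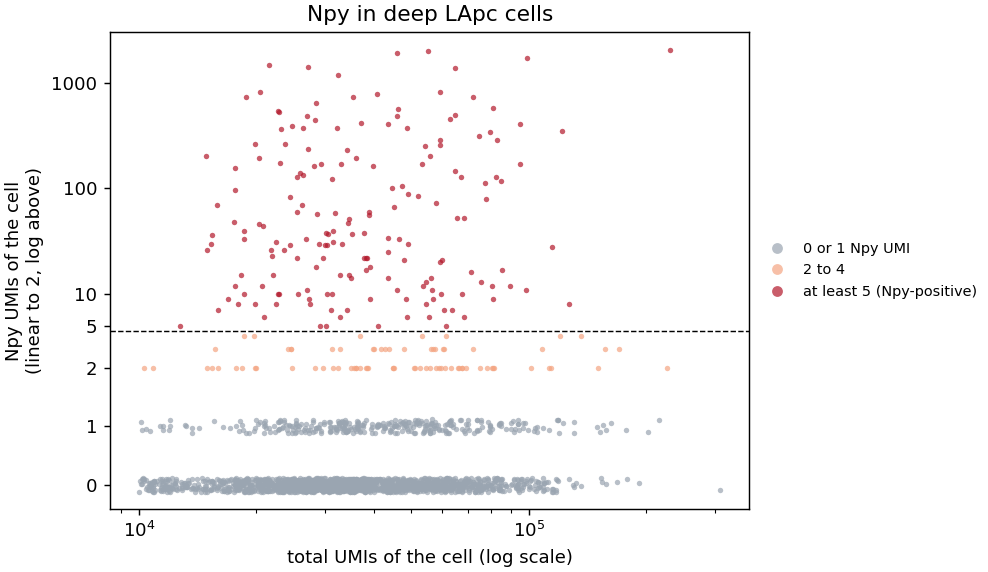
Npy UMIs of each deep LApc cell (linear up to 2 UMIs, log scale above) against the total UMIs of the cell (log scale), coloured by the 3 classes, with a dashed line at the rule of at least 5 UMIs. Npy-positive cells spread from 5 to 2023 Npy UMIs at all depths, and points at 0 and 1 are spread slightly in the vertical direction so that they can be seen.

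The 250 bases before the start of Npy are shown because Npy defines these cells. They lie at chr6:49822460-49822709 (plus strand) and are the RefSeq sequence of build GRCm38.p6, written 5′ to 3′.
Npy: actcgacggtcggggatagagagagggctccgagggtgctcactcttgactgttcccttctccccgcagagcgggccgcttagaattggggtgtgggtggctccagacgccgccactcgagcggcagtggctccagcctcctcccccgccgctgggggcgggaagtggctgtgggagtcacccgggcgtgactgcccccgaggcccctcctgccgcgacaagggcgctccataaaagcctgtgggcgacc
They held none of 3 motifs searched on both strands: CTTTGAT and CTTTGAA, forms of the Tcf/Lef site that differ in the last letter, and TGANTCA, the AP-1 site. A missing match says only that these letters are not in this window.

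The 4 other genes proposed as markers of the state were all higher in Npy-positive cells, but none was particular to them. Mt3, a metallothionein that binds zinc and copper, was at 934 CPM in the summed Npy-positive cells and 253 CPM in Npy-low cells, a log2 ratio of 1.88 (1.84 to 1.92). It was unevenly spread, with 0 UMIs in 44 of the 179 cells, a median of 340 CPM per cell and a highest value of 6315 CPM. Ifitm1, an interferon-inducible membrane protein gene that is also known as a Wnt target, was at 4925 against 1374 CPM (log2 ratio 1.84, 1.82 to 1.86) and was found in every Npy-positive cell. Spock2, which encodes a matrix proteoglycan, was at 512 against 203 CPM (1.33, 1.28 to 1.38). Nkd1, which binds Dishevelled and dampens Wnt signalling, was at 966 against 481 CPM (1.004, 0.97 to 1.04). Per cell, Nkd1 ran from 98.0 to 2062 CPM in Npy-positive cells (median 1022) and from 0 to 2581 CPM in Npy-low cells (median 500), so the groups overlapped over most of their range. Against the 1298 Npy-low cells with at least 5 Nkd1 UMIs, called Nkd1-positive Npy-low cells, the ratios were 1.25 for Mt3, 1.24 for Ifitm1 and 0.71 for Spock2, so that Spock2 was no longer past 2-fold.

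The 5 markers were found together in 133 of 179 Npy-positive cells (74.3%), counting at least 1 UMI of each of the 4 genes besides Npy. The same 4 genes were found together in 473 of 1904 Npy-low cells (24.8%). With a minimum of 5 UMIs for each gene taken alone, Mt3 was found in 111 Npy-positive and 340 Npy-low cells, and Spock2 in 136 and 507. Nkd1 reached that minimum in all 179 Npy-positive and in 1298 Npy-low cells. The other markers were thus higher as a group average, and most cells with them were Npy-low. In deep LApcL cells, Mt3 and Spock2 were at 2.05 and 0.61 CPM, whereas Ifitm1 and Nkd1 were at 505 and 179 CPM. In deep WT cells, each of the 4 was under 1 CPM.

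Across the genome, 3581 genes other than mitochondrial ones reached 50 CPM in either group. Of these, 325 (9.08%) were at least 2-fold higher and 152 (4.24%) at least 2-fold lower in Npy-positive cells, on the scale of CPM + 1. The median log2 ratio of all 3581 genes was 0.05. With median-of-ratios scaling, which moved that median by -0.12, 270 genes were higher and 200 lower, so that the share of higher genes among those past 2-fold went from 68.1% to 57.4%. Npy-low cells are a mixture, and the counts depended on it: against the Nkd1-positive Npy-low cells, 212 genes were higher and 99 lower. Ratios against these cells are given below for named genes that lose a 2-fold call, and for some others that are closer to 0.

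After Npy, the highest log2 ratios were those of Nrn1, Apoc4, Rab3c, Vstm2b, Pnliprp1, Robo1, Hdc, Capn9, Ecm1, Gas1, Wif1, Tgfb2 and Rcn1. Their log2 ratios ran from 4.47 for Nrn1 to 3.30 for Rcn1. Several belong to neurons in other settings: Nrn1 (neuritin) promotes neurite growth, Rab3c is a small GTPase of secretory vesicles, and Robo1 is a receptor for Slit guidance cues. Others encode secreted or surface proteins, among them Wif1, which captures Wnt ligands, Tgfb2, a transforming growth factor ligand, Gas1, a Hedgehog co-receptor, and Ecm1, a matrix protein. Apoc4 is an apolipoprotein, Pnliprp1 a relative of pancreatic lipase, Capn9 a calpain of the digestive tract, and Hdc the enzyme that makes histamine.

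These genes were not at one level in all Npy-positive cells. Robo1 was at 205 CPM against 13.4 CPM (log2 ratio 3.83, 3.72 to 3.94), and 22 of 179 cells had none. Its level per cell ran from 0 to 772 CPM with a median of 199, and 53 of 1904 Npy-low cells reached that median. Wif1 was at 724 against 60.6 CPM (3.56, 3.50 to 3.61), with 0 to 4592 CPM per cell, a median of 587 and 8 cells at 0. Only 64 Npy-low cells (3.36%) reached the Npy-positive median of Wif1, although their highest value was 1886 CPM. Apoc4 was at 234 against 9.60 CPM (4.47, 4.36 to 4.59) and was at 0 in 42 Npy-positive cells. Hdc was at 122 against 8.17 CPM (3.75, 3.61 to 3.88), but 111 Npy-positive cells had none and 26 cells held 90% of its UMIs. Nrn1, Rab3c and Capn9 also had a median of 0 CPM per Npy-positive cell. The highest ratios thus join genes found in most of the cells, such as Robo1 and Wif1, with genes of a minority, such as Hdc.

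In the other libraries the same genes were low. In deep LApcL cells they were at 0 to 7.44 CPM, the latter for Wif1. In deep WT cells they were at 0 to 2.60 CPM apart from Nrn1, which was at 43.7 CPM.

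**Figure D2:**
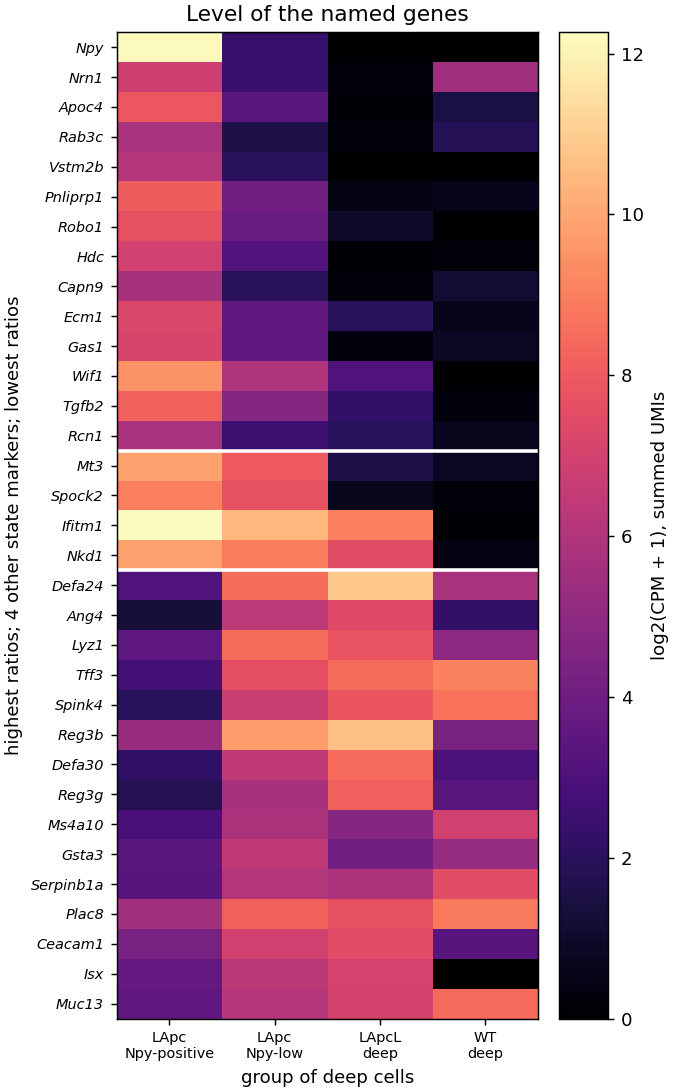
Level of the named genes as log2(CPM + 1) of summed UMIs in the 4 groups of deep cells: LApc Npy-positive, LApc Npy-low, LApcL and WT. Npy and the genes of highest ratio stand above the white lines, the 4 other state markers between them and the 15 genes of lowest ratio below. The upper genes are bright in the first column, and Ifitm1 and Nkd1 are also at 505 and 179 CPM in LApcL.

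The 15 lowest ratios came from 2 kinds of genes. The first were secreted products: Defa24 (an alpha-defensin), Ang4, Lyz1 (lysozyme), Tff3 (trefoil factor of goblet cells), Spink4, Reg3b, Defa30 and Reg3g. Lyz1 was at 10.1 CPM in Npy-positive and 364 CPM in Npy-low cells, a log2 ratio of -5.05 (-5.35 to -4.75). This level rested on few cells of the reference, because 17 of 1904 Npy-low cells held 90% of its UMIs, and after both groups were cleared of cells with at least 1% of UMIs from the Paneth and goblet lists (7 and 52 cells) the ratio was 0.26. In the same way the ratio went from -4.22 to 0.32 for Defa30, from -5.45 to -0.16 for Defa24, from -5.09 to -0.31 for Ang4 and from -4.73 to -0.28 for Spink4, so that none of these 5 genes was past 2-fold. Reg3b (-4.50), Reg3g (-3.94) and Tff3 (-3.24) stayed lower in that setting, while against Nkd1-positive Npy-low cells Reg3b was at -2.74 and Reg3g at -2.92. Defensin genes are near-identical copies whose reads the counting could split. After thinning each cell to 10000 UMIs, Lyz1 was found in 4.47% of Npy-positive and 5.51% of Npy-low cells. Reg3b, Tff3 and Reg3g were found in more of the Npy-low cells (28.4%, 18.1% and 11.3%, against 11.7%, 3.35% and 1.68% of Npy-positive cells).

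The other genes were, like Reg3b, spread over many reference cells. Plac8 was at 46.1 against 297 CPM (-2.66, -2.81 to -2.51), Isx, an intestine-specific homeobox factor, at 11.7 against 77.1 CPM (-2.62, -2.90 to -2.34), and Muc13, a membrane mucin, at 10.7 against 67.7 CPM (-2.55, -2.85 to -2.26). In thinned cells, Plac8 was found in 13.4% of Npy-positive and 50.1% of Npy-low cells, and Isx in 5.03% and 37.8%. Ms4a10, Gsta3 (a glutathione transferase), Serpinb1a (an inhibitor of neutrophil proteases) and Ceacam1 (an adhesion molecule) completed the group, with log2 ratios from -2.94 to -2.66. In thinned cells these 4 were found in 2.23% to 8.94% of Npy-positive cells and in 21.2% to 38.1% of Npy-low cells. Against Nkd1-positive Npy-low cells the ratios were smaller for Plac8 (-1.47), Ms4a10 (-1.16), Serpinb1a (-1.06), Ceacam1 (-1.48) and Muc13 (-1.63). Without the 917 barcodes with the highest Scrublet scores for doublets (2 cells in 1 droplet) the ratios were larger: -4.91 for Plac8, -5.73 for Ms4a10, -4.75 for Serpinb1a, -4.08 for Ceacam1, -4.07 for Muc13, -4.28 for Gsta3 and -4.18 for Isx.

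Lists of genes were then counted over members with at least 10 CPM in either group. Over all 9029 such genes, 779 (8.63%) were at least 2-fold higher and 543 (6.01%) at least 2-fold lower, with a median log2 ratio of 0.05. A member that reached 10 CPM in 1 group only had its direction set by this minimum, so that counts of a list describe and support nothing.

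The genes that mature the peptide differed in how widely they were found. Pcsk1, a prohormone convertase, was at 194 against 34.97 CPM (log2 ratio 2.44), and Pam, which amidates peptides, at 238 against 97.5 CPM (1.28). Per Npy-positive cell, Pam ran from 0 to 1041 CPM with a median of 203 and was missing from 3 cells, whereas Pcsk1 was missing from 67. Pcsk2, the other main convertase, was at 0.64 CPM, and Cpe, the carboxypeptidase of this path, at 8.38 against 4.23 CPM. Of the Y receptor genes, Npy1r was at 1.16 CPM, Npy2r at 0.13 CPM, and Npy4r, Npy5r and Npy6r had 0 UMIs in Npy-positive cells. Dpp4, a peptidase that trims the mature peptide, was at 4.64 against 11.3 CPM (-1.12, and -0.77 against Nkd1-positive Npy-low cells). Of the 11 genes of this list, 4 reached 10 CPM, 2 of them at least 2-fold higher and 1 at least 2-fold lower.

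Most enteroendocrine and neuronal markers were at or near 0 in the Npy-positive cells. Of 22 enteroendocrine markers, 11 had 0 UMIs in the 179 cells, among them the factors Neurod1 and Neurog3. The granule genes Chga and Chgb were at 0.26 and 0.13 CPM, and the ratio of Chgb went from -3.62 to -0.42 without the highest doublet scores. The exception was Nts (neurotensin) at 72.8 against 8.92 CPM, and 11 cells held 90% of its UMIs. Of 15 neuronal and glial markers, 6 had 0 UMIs, among them Snap25, Syp and Stmn2, and Uchl1 alone passed 10 CPM (17.9 against 2.81 CPM). Npy-low cells were also low for both lists. Summed over the list, enteroendocrine markers made up 85.6 against 51.8 CPM and neuronal and glial markers 26.0 against 10.3 CPM. Of 10 epithelial genes, all measured, none was at least 2-fold higher and 4 were at least 2-fold lower (Cdx1, Cdx2, Elf3 and Krt19), with a median of -0.64. Krt19 was at -0.65 against Nkd1-positive Npy-low cells. Epcam, the general epithelial adhesion gene, was at 1487 against 1577 CPM (log2 ratio -0.08) and was found in every cell, with 302 to 3766 CPM per Npy-positive cell. Krt8 and Krt18, keratins of simple epithelium, had log2 ratios of 0.16 and 0.31.

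Most markers of other cell types were near 0. Of 7 immune markers 4 had 0 UMIs, Ptprc among them, as did 4 of 7 markers of fibroblasts and muscle, Col1a1 and Dcn among them. Summed over the list, immune markers made up 8.12 against 13.2 CPM, and fibroblast and muscle markers 6.70 against 2.90 CPM. Of 5 endothelial markers, Cdh5 (VE-cadherin) was at 34.2 against 1.80 CPM and Egfl7 at 31.3 against 13.2 CPM (1.19, and 0.996 against Nkd1-positive Npy-low cells), while Pecam1 and Kdr were at 2.45 and 0.26 CPM. Cdh5 was found in 26.3% of thinned Npy-positive cells and 1.47% of Npy-low cells. The part of other cells in these levels was not tested. Of 14 enterocyte markers, 5 had 0 UMIs, and Fabp1 and Alpi were among these. The 2 measured members were Anpep, at least 2-fold higher (1.61), and Slc5a1, at least 2-fold lower (-2.28). Each passed the 10 CPM minimum through 1 group alone. Of 10 tuft cell markers, 8 had 0 UMIs. These levels were low in both groups: summed over the list, enterocyte markers made up 36.7 against 46.1 CPM and tuft cell markers 24.4 against 27.2 CPM.

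Secreted brakes on the Wnt pathway differed in both directions. Of 13 secreted antagonists, 5 reached 10 CPM. Wif1, Notum and Dkk3 were at least 2-fold higher, and Dkk2 and Sfrp5 at least 2-fold lower. Sfrp5 passed the 10 CPM minimum through Npy-low cells alone. Notum, which strips the lipid from Wnt ligands, was at 695 against 262 CPM (log2 ratio 1.40), with 0 to 5399 CPM per Npy-positive cell, a median of 534 and 2 cells at 0. In Npy-low cells its median was 139 CPM, and 347 of them (18.2%) reached the Npy-positive median. Dkk3 was at 243 against 63.3 CPM (1.93). Against Nkd1-positive Npy-low cells the ratios were 0.81 for Notum, 1.32 for Dkk3 and 2.95 for Wif1, so that Notum was no longer past 2-fold.

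Cell-bound feedback genes differed less. All 6 measured members had a log2 ratio above 0, and Nkd1 alone was at least 2-fold higher. Axin2, the scaffold of the destruction complex, was at 526 against 376 CPM (0.48), Apcdd1 at 409 against 222 CPM (0.88), and Znrf3, which removes Frizzled receptors, at 115 against 62.1 CPM (0.88). Axin2 was found in all but 1 Npy-positive cell and in all but 15 Npy-low cells. Against Nkd1-positive Npy-low cells, whose choice by Nkd1 sets the ratio of that gene, the ratios were 0.23 for Axin2, 0.32 for Apcdd1 and 0.47 for Znrf3. Lef1 was at 103 against 69.2 CPM (0.56, and 0.06 against Nkd1-positive cells), and Prox1, a Wnt target of adenoma cells, at 583 against 413 CPM (0.50, and -0.11). Of 19 Wnt ligand genes 4 were measured, 3 of them at least 2-fold higher and 1 at least 2-fold lower. Wnt6 was at 365 against 178 CPM (1.03), Wnt10a at 111 against 38.7 CPM (1.49), Wnt5b at 12.2 against 4.93 CPM and Wnt7b at 5.80 against 13.5 CPM. Against Nkd1-positive cells none of these 4 was past 2-fold.

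Other Wnt targets had no common direction. Of 14 measured members, 2 were at least 2-fold higher and 2 at least 2-fold lower, with a median of -0.25. Sox17, an endoderm factor that restrains beta-catenin, was at 135 against 14.0 CPM (3.17), and Ephb3, a receptor that positions cells along the crypt, at 69.3 against 28.6 CPM (1.25, and 0.86 against Nkd1-positive Npy-low cells, which leaves 1 higher member). Ccnd1 (cyclin D1) was at 102 against 391 CPM (-1.93, and -1.24 against Nkd1-positive Npy-low cells), and Ascl2, the stem cell factor of the crypt base, at 13.7 against 71.0 CPM (-2.30). Ascl2 was at 0 in 146 of 179 Npy-positive cells and in 705 of 1904 Npy-low cells. Of 13 measured crypt base stem cell markers none was at least 2-fold higher, and Ascl2, Cdca7 (-2.45) and Slc12a2 (-2.08) were at least 2-fold lower. Lgr5 was at 22.4 against 36.8 CPM (-0.69), and Olfm4 had 0 UMIs in Npy-positive cells (-0.78). Myc was at 32.7 against 56.4 CPM (-0.77).

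All measured cell cycle genes had ratios below 0. Of 21 measured S phase genes 19 were at least 2-fold lower and none higher, with a median of -1.58, and of 21 measured G2 and mitosis genes 16 were at least 2-fold lower and none higher, with a median of -1.33. Of these, 6 S phase genes and 4 G2 and mitosis genes passed the 10 CPM minimum through Npy-low cells alone. Summed over the list, S phase genes made up 519 CPM in Npy-positive and 1300 CPM in Npy-low cells. Mcm6, a helicase subunit, was at 23.8 against 83.1 CPM (-1.76), and Mki67, which marks cycling cells, at 49.9 against 123 CPM (-1.29). In thinned cells Mki67 was found in 18 of 179 Npy-positive cells (10.1%, 6.07 to 15.4) and in 26.8% of Npy-low cells (24.9 to 28.9). Some Npy-positive cells did carry mitosis genes, and Top2a reached 2646 CPM in 1 of them. The differences held against Nkd1-positive Npy-low cells, with 19 S phase and 14 G2 and mitosis genes at least 2-fold lower.

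Cell cycle inhibitors and p53 targets gave no common direction. Cdkn1c (p57) was at 467 against 128 CPM (1.86), with 0 to 7160 CPM per Npy-positive cell and a median of 318 against 22.9 CPM. Cdkn1a (p21) was at 217 against 444 CPM (-1.03), Cdkn2a at 12.5 against 31.1 CPM (-1.25), and Cdkn1b at 45.8 against 42.8 CPM (0.09). Of 13 measured members of the list 1 was at least 2-fold higher and 3 at least 2-fold lower, the last of them Pmaip1 (-1.30), a p53 target that promotes cell death. Against Nkd1-positive Npy-low cells none was at least 2-fold lower, with -0.84 for Cdkn1a and -0.75 for Cdkn2a.

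Some Bmp ligands and feedback genes were higher. Of 11 measured Bmp genes 6 were at least 2-fold higher: Bmp1, Bmp4, Bmp7, the inhibitors Smad6 and Smad7, and the pseudoreceptor Bambi. Bmp4 was at 70.6 against 24.9 CPM (1.47) and Smad7 at 152 against 60.2 CPM (1.32). The target genes Id1, Id2 and Id3 had ratios of 0.36, 0.22 and 0.69, and the ligands Bmp2 and Bmp8b of 0.24 and -0.95. Of the 11, 2 passed the 10 CPM minimum through Npy-positive cells alone. Against Nkd1-positive Npy-low cells 2 of the 11, Smad6 and Smad7, were past 2-fold, and Bmp2 was at -0.24. A further list of ligands, feedback and target genes of Tgfb, written after values had been seen, had 8 measured members, of which 3 passed the 10 CPM minimum through Npy-positive cells alone. It held Tgfb2 at 298 against 25.6 CPM (3.49) together with Inhba and Inhbb, the activin subunits, at 11.9 against 2.59 CPM and 14.4 against 3.90 CPM. Of 7 measured Notch genes 1 was at least 2-fold higher and 1 at least 2-fold lower, with a median of -0.59. Of the 7, 2 passed the 10 CPM minimum through Npy-low cells alone, Lfng among them. Hes1, a transcriptional repressor, was at 1509 against 753 CPM (log2 ratio 1.003, and 0.85 against Nkd1-positive cells), whereas Lfng, which modifies Notch receptors, had a ratio of -1.05 and Hes6 of -0.87 (-1.29 against Nkd1-positive cells). The receptors Notch1 and Notch2 were at 37.1 against 34.2 CPM and 10.4 against 16.2 CPM.

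**Figure D3:**
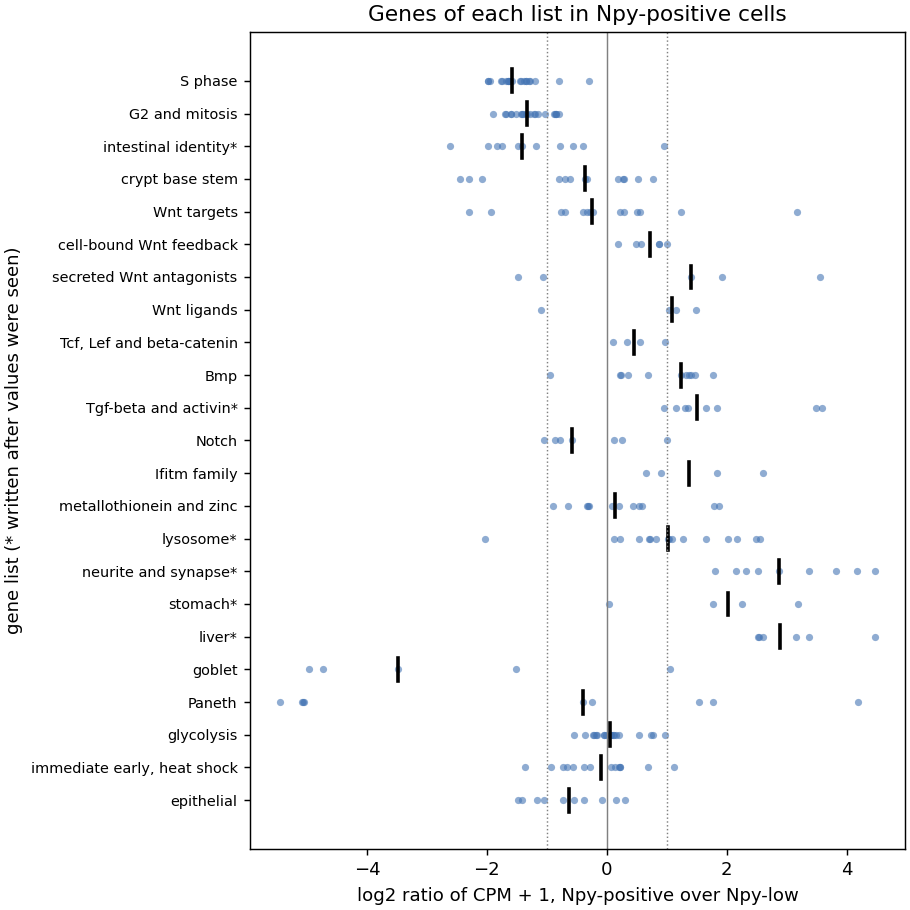
Log2 ratio of CPM + 1 of Npy-positive over Npy-low cells for each list member with at least 10 CPM in either group (points) and the median of the list (black bars). Dotted lines mark 2-fold, and lists with an asterisk were written after values had been seen. S phase genes sit left of 0 with a median of -1.58, and secreted Wnt antagonists lie on both sides with a median of 1.40.

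Of the Ifitm family, all 4 measured members had ratios above 0: Ifitm1 (1.84), Ifitm6 (2.61), Ifitm3 (0.90) and Ifitm2 (0.66). The family members are similar in sequence, so reads could be split between them. Interferon-induced genes did not follow, and of 7 measured members none was at least 2-fold higher and Ifi27 was at least 2-fold lower (-1.03, and -0.73 against Nkd1-positive cells). Among metallothioneins, Mt3 and Mt4 were at least 2-fold higher, with Mt4 at 151 against 43.0 CPM (1.79), while Mt1 and Mt2 were at 305 against 479 CPM and 43.3 against 81.9 CPM. Over the 179 cells, Mt3 and Mt4 had a Spearman correlation of 0.61 in thinned counts. Of 20 glycolysis genes none was past 2-fold in either direction, and their median was 0.06. Of 80 measured ribosomal protein genes 78 had a ratio below 0, with a median of -0.32, and all 13 mitochondrial genes were lower, with a median of -0.55.

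Factors of intestinal identity were lower. This list was written after values had been seen, and 7 of its 11 measured members were at least 2-fold lower and none higher, with 3 passing the 10 CPM minimum through Npy-low cells alone and 1 through Npy-positive cells alone. Cdx2, the main determinant of intestinal identity, was at 28.2 against 80.7 CPM (-1.48), Cdx1 at 34.8 against 94.3 CPM (-1.41), and Hnf4a, a factor of the absorptive programme, at 14.95 against 55.9 CPM (-1.84). Cdx2 was at 0 in 121 of 179 Npy-positive cells and in 612 of 1904 Npy-low cells. Cdh17, an intestinal cadherin, was at 16.1 against 66.3 CPM (-1.98), and Gata6 and Klf5 had ratios of -0.40 and -0.56. The ratios of Cdx2 and Hnf4a against Nkd1-positive Npy-low cells were -1.25 and -1.55.

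Some genes best known from other organs were higher, each as a few members of its list. Of 18 stomach genes, 4 were measured and 3 were at least 2-fold higher: Ctse (cathepsin E, 184 against 19.3 CPM), Muc6 (the mucin of gland cells, 57.0 against 11.1 CPM) and Tff2 (23.2 against 6.05 CPM). Tff1, Cldn18 and Gkn1 had 0 UMIs in Npy-positive cells. Of 15 liver genes 6 were measured, 2 of them through Npy-positive cells alone. They held Lect2 (a secreted chemotactic factor, 545 against 60.3 CPM) and Gulo (the last enzyme of vitamin C synthesis, 151 against 25.1 CPM), while albumin (Alb) was at 4.12 CPM. Pnliprp1 and Pnliprp2, relatives of pancreatic lipase, were at 265 against 16.2 CPM and 478 against 47.9 CPM, while colipase (Clps) was at 1.80 against 19.1 CPM (-2.84, but 1.11 without cells rich in Paneth and goblet UMIs) and the pancreatic factors Pdx1 and Ptf1a had 0 UMIs. Of 11 mast cell genes, Hdc and the tryptase Tpsb2 (164 against 28.2 CPM) were higher, and 8 members, Cpa3 and Cma1 among them, had 0 UMIs. These 4 lists were also written after values had been seen, and they describe single genes, not an organ.

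Lysosomal genes formed a further such list. Of 16 measured members, 9 were at least 2-fold higher and 1 at least 2-fold lower, with a median of 1.03, and 2 passed the minimum through Npy-positive cells alone and 1 through Npy-low cells alone. Against Nkd1-positive cells 6 were at least 2-fold higher. Ctsd (cathepsin D) was at 1439 against 319 CPM (2.17), Lamp2 at 1130 against 278 CPM (2.02) and the protease inhibitor Cst3 at 1018 against 172 CPM (2.56). Cst3 was found in every Npy-positive cell, with a median of 693 CPM against 134 CPM.

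Among neurite and synapse genes, also listed after values had been seen, 9 were measured, 5 of them through Npy-positive cells alone. Ptn (pleiotrophin, a secreted growth factor of neurites) was at 3006 against 409 CPM (2.87, 2.85 to 2.90), and its ratio against Nkd1-positive Npy-low cells was 2.25. It was found in 178 of 179 Npy-positive cells, from 0 to 12645 CPM with a median of 2632. In Npy-low cells its median was 0 and its highest value 13317 CPM, and 605 of them had at least 5 UMIs. Ptn was at 1.06 CPM in deep LApcL cells and had 0 UMIs in deep WT cells.

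The level of the other genes was then followed over classes of Npy UMIs. Ptn was at 399 CPM in the 1578 cells with 0 Npy UMIs, 446 CPM in the 326 cells with 1, 1132 CPM in the 78 cells with 2 to 4 and 2413 CPM in the 58 cells with 5 to 19. From there it differed less, with 2920, 3760 and 3012 CPM in the classes that start at 20, 100 and 500 UMIs. Wif1 went from 60.2 CPM at 0 Npy UMIs to 213 CPM at 2 to 4 and 587 CPM at 5 to 19. Cells with 2 to 4 Npy UMIs therefore lay between the groups for these genes, while Ccnd1 (396 CPM) and the galectin gene Lgals4 (1357 CPM) were in them close to the 392 and 1271 CPM of cells with 0 Npy UMIs. From 5 to 19 UMIs upwards, Ccnd1 was at 66.6 to 132 CPM. Lgals4 was at 109 CPM at 20 to 99 UMIs but was at 634 CPM in the 19 cells with 500 or more. Epcam stayed at 1426 to 1605 CPM in all 7 classes. The classes differed in depth, with medians from 31435 to 46430 UMIs per cell.

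**Figure D4:**
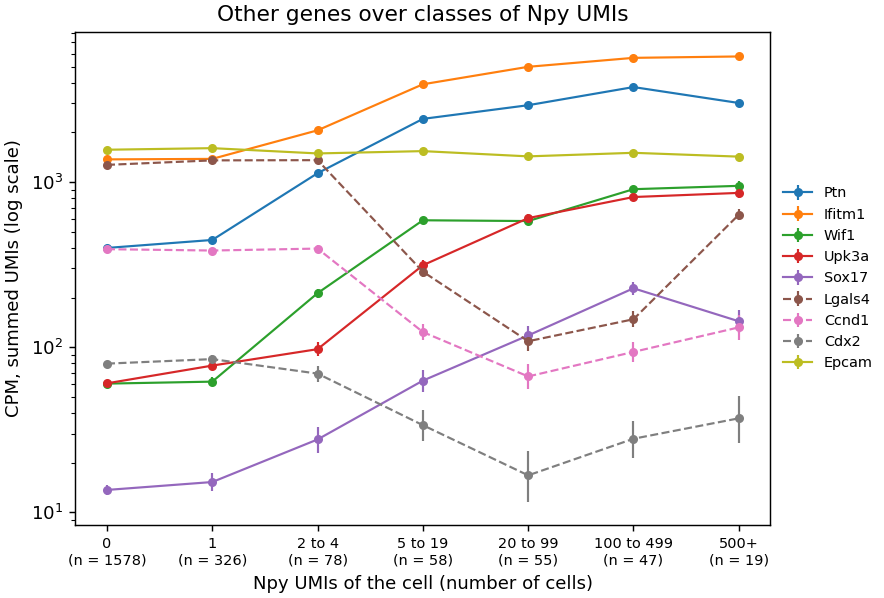
CPM of 9 genes (log scale) from UMIs summed over deep LApc cells in 7 classes of Npy UMIs, with the number of cells under each class and exact 95% Poisson intervals as bars. Solid lines of Ptn, Ifitm1, Wif1, Upk3a and Sox17 go up over the first classes, dashed lines of Ccnd1, Cdx2 and Lgals4 are lower from 5 Npy UMIs on, and Epcam stays between 1426 and 1605 CPM.

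Npy-positive cells also lay near each other when Npy was left out. On 20 principal components of 1995 variable genes without Npy and mitochondrial genes, a median of 11 of the 20 nearest neighbours of an Npy-positive cell were Npy-positive, where their share of all cells would give 1.66. Of the 179 cells 96 (53.6%) had at least 10 such neighbours and 11 had none. Among Npy-low cells, 1464 (76.9%) had none and 23 (1.21%) had at least 10. The 23 cells, with a lowest depth of 16805 UMIs, were at 3660 CPM for Ptn, 1133 CPM for Upk3a, a urothelial membrane gene, and 4.01 CPM for Cdx2, so that a profile like that of the Npy-positive cells also occurred with at most 1 Npy UMI. The 11 Npy-positive cells with no such neighbour were at 893 CPM for Ptn and 1371 CPM for Lgals4, with a median of 10 Npy UMIs. The cell with the most Npy UMIs, 2023, was among them. It was also the deepest Npy-positive cell, with 229541 UMIs, and the highest Npy level as CPM, 68438, was in another cell. The components were computed from the same cells as the comparison, so this is a description and not a test.

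**Figure D5:**
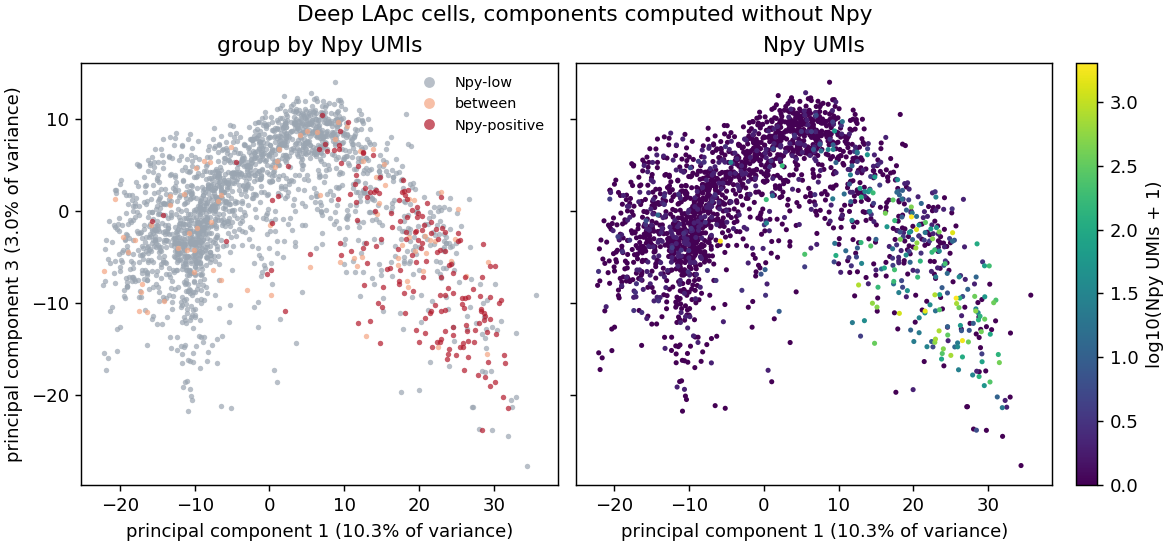
Deep LApc cells on principal components 1 and 3, which carry 10.3% and 3.0% of the variance of the variable genes and were computed without Npy. Colours give the group on the left and log10(Npy UMIs + 1) on the right, and Npy-positive cells lie mostly at the right end of component 1, among Npy-low cells.

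Within the 179 cells, the amount of Npy went with few genes. Over 5661 genes found in at least 20% of the thinned cells, the absolute Spearman correlation with Npy had a median of 0.06. The 10 highest positive correlations were those of Fth1 (0.50), Tmem176b (0.43), Apoc4 (0.43), Tmem176a (0.41), Lamp2 (0.41), Ifitm1 (0.41), Hacd4 (0.37), Itm2c (0.36), Sox17 (0.34) and Tgfb2 (0.33). Fth1 encodes the heavy chain of ferritin, was at 14168 against 3412 CPM (log2 ratio 2.05), and has processed copies whose reads could be counted with it. Among negative correlations, the largest in size were those of Tmsb10 (-0.45), a thymosin that binds actin, Sox4 (-0.38) and Nedd4 (-0.35), a ubiquitin ligase. Of the state markers, Spock2 had a correlation of 0.11, Mt3 of -0.04 and Nkd1 of -0.07. The points are cells of 1 library brought to the same depth, and Npy had a correlation of -0.19 with the total UMIs before thinning.

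Other pairs of genes had correlations of either sign over the 179 cells. Pnliprp1 and Pnliprp2 had a correlation of 0.68, and Lect2 and Apoc4 of 0.61. Ifitm1 and Ccnd1 had a correlation of -0.42, and Mt3 had correlations of -0.23 with Cdh5 and -0.22 with Sox17. Alpha-defensins Defa21 and Defa22 were at 745 against 255 CPM and 939 against 274 CPM, but 11 and 14 of the 179 cells held 90% of their UMIs, and the copies cannot be told apart with certainty. Without cells rich in Paneth and goblet UMIs their log2 ratios went from 1.54 to 4.26 and from 1.77 to 4.55. Of 9 measured Paneth cell markers 3 were at least 2-fold higher (Defa21, Defa22 and Mptx2) and 4 at least 2-fold lower (Defa17, Defa24, Ang4 and Lyz1). Of these 9, 1 passed the 10 CPM minimum through Npy-positive cells alone and 3 through Npy-low cells alone. Without the rich cells none of the 4 lower genes was past 2-fold, and Defa17 went from -5.06 to -0.80. Of 5 measured goblet cell markers Fcgbp was at least 2-fold higher (1.05). Tff3, Spink4, Guca2a and Agr2 were at least 2-fold lower, each passing the minimum through Npy-low cells alone. Without the rich cells Agr2 was at 0.63 and Spink4 at -0.28.

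Sequences before the start sites were compared because many genes were higher together. RefSeq held a promoter for 245 of the 325 genes that were at least 2-fold higher, 105 of the 152 lower and 2859 of the 3581 compared. CTTTGAT was found on either strand in the 250 bases before the first listed start of 15 of the 245 higher genes (6.12%), 3.81% of the lower genes, 2.52% of the compared genes and 3.23% of all 27025 promoters. CTTTGAA was found in 4.08%, 2.86%, 3.15% and 4.64%, and TGANTCA in 3.67%, 7.62%, 3.67% and 6.87%. The shares rest on 3 to 15 genes in the higher and lower sets. Of the genes of highest ratio and the state markers, Hdc, Apoc4, Spock2 and Rab3c hold a Tcf/Lef form, and the first 3 are shown, with the match in capitals, at chr2:126618679-126618928 (minus strand) for Hdc, chr7:19681461-19681710 (minus strand) for Apoc4 and chr10:60106007-60106256 (plus strand) for Spock2.
Hdc: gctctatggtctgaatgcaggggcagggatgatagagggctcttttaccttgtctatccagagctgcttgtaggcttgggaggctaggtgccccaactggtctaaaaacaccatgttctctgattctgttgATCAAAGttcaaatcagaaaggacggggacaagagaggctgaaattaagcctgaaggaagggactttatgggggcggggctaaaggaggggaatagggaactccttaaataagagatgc
Apoc4: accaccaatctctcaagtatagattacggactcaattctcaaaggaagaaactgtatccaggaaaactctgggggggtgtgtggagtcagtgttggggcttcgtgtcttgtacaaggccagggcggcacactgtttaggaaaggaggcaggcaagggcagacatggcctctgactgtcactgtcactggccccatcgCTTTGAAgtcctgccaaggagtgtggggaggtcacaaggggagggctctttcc
Spock2: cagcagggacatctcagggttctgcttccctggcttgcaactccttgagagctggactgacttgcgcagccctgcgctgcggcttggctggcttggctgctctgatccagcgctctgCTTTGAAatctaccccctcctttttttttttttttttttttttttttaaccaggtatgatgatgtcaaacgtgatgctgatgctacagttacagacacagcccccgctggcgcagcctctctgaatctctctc
The matches begin 119, 53 and 133 bases before the start, and a match describes the letters, not binding.

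Doublets, droplets with more than 1 cell, could not be called with certainty. Scrublet's own threshold marked 1 of 10706 barcodes and so did not work. Of the 917 barcodes with the highest scores, a rate of 0.8% per 1000 barcodes, 57 were Npy-positive (31.8% of the 179) and 324 Npy-low (17.0%). Without them 122 Npy-positive cells remained, with 397 genes at least 2-fold higher and 231 lower, and 322 of the 325 higher and all 152 lower genes were among these.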

How the data were processed

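Small intestinal organoids of 3 genotypes were profiled with droplet-based 10x libraries (Reagent Kit v2 or v3), 1 library each. The authors deposited whole-number UMI counts per gene and barcode, not normalised. The study's methods and the submitters' processing notes name Cell Ranger 2.1.1 with mm10, whereas the file headers name 6.0.1. Deep, unshared LApc barcodes were grouped by Npy UMIs. No doublets were removed, since Scrublet (scanpy 1.11.5) did not work at its own threshold. UMIs were summed per group and scaled to CPM (Python 3.11.15, scipy 1.17.1). Log2 ratios are of CPM + 1, which understates changes of low genes. Shares of cells used cells thinned to 10000 UMIs. Intervals are exact (Poisson, conditional binomial, Clopper-Pearson) and cover counting error only. With 1 library per group there was no test.

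Named genes were the 15 highest and the 15 lowest log2 ratios among genes with at least 50 CPM in either group without mitochondrial genes, the 5 state markers, list members with the largest ratios or that define a cell type, and the 10 genes most correlated with Npy. Lgals4 and Upk3a were named after their values had been seen. The members, the 34 gene lists, the 2 lists of ribosomal and mitochondrial genes taken by symbol, and the tests were chosen with earlier results of these data known, and 10 further lists were written after values had been seen. Of 681 list entries 680 were found. Interval and ratio steps were tested on simulated data. Some items that the rule would name are not reported here. The alternatives tried are given in the closing section.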

Additional observations from a re-analysis of the deposited data

Results flagged for a closer look

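Npy signal also occurred outside the comparison. In the LApc library 9 barcodes that had been left out carried at least 5 Npy UMIs, against 0 such barcodes in WT and 0 in LApcL. Of the 9, 8 had under 10000 UMIs, 1 of them with over 20% mitochondrial UMIs as well, and the remaining 1 had a barcode string that another library also held. They had 1082 to 19604 UMIs and 5 to 166 Npy UMIs, with a median of 9.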

How the results depend on the processing

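No paired analysis was possible because each group had 1 library, and for the same reason no replicate could be left out. There were 19 alternatives planned and 3 chosen after seeing the data. The number of Npy-positive cells stayed within 1.5 times of 179, from 121 with a minimum of 20 Npy UMIs to 207 with a minimum of 3, and it was 128 when cells were thinned to 10000 UMIs first. The counts of genes at least 2-fold higher and lower moved by over 1.5 times where the number of genes compared changed: to 81 and 26 with a minimum of 200 CPM, 779 and 543 with 10 CPM, and 1298 and 886 with no minimum. They were 212 and 99 against Nkd1-positive Npy-low cells, and the lower count was 231 without the highest Scrublet scores. Ratios changed sign for Lyz1 (0.24 and 0.26) and Defa30 (0.90 and 0.32) when cells rich in Paneth and goblet UMIs were left out of the reference or of both groups, and Defa24, Ang4 and Spink4 were then under 2-fold, from -0.16 to -0.31. The median of the Paneth list then went from -0.39 to 2.90 and 2.86. The median of the enteroendocrine list, with few measured members, went from -1.18 to 1.18 without the highest Scrublet scores, and the cause was not tested. No other gene of the 15 highest, the 15 lowest and the state markers changed sign. Spock2 was under 2-fold (0.71) against Nkd1-positive Npy-low cells. Nkd1 lay at the edge of 2-fold, with ratios from 0.39 against Nkd1-positive Npy-low cells to 1.15 without the highest Scrublet scores. The 0.39 was set by the choice of that reference by Nkd1 itself. Depth limits genes under about 10 CPM, and the shallow barcodes were not compared.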

Other observations

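Genes of other programmes were mixed. Of 15 measured genes of fetal intestine and Yap activity, 4 were at least 2-fold higher in Npy-positive cells (Ecm1, Ly6e, Il33 and Amotl2) and 4 at least 2-fold lower (Ly6a, Krt4, Ccn2 and Ankrd1), with a median log2 ratio of 0.00. For 3 of the lower genes the ratio depended on the reference: against Nkd1-positive Npy-low cells Ly6a was at -1.22, Krt4 at -1.20 and Ccn2 at -0.65, and without the highest doublet scores at -6.26, -3.46 and -2.72. Ankrd1 went from -1.30 to -1.27 and -1.08 in the same settings. Ly6e, a surface protein of the Ly6 family, was at 593 against 115 CPM (2.35), whereas its relative Ly6a (Sca-1) was at 35.7 against 184 CPM (-2.33). Of 6 measured matrix genes, Timp2, an inhibitor of matrix proteases, was at 340 against 136 CPM (1.31), and Timp3 at 15.7 against 41.3 CPM (-1.34, and -0.65 against Nkd1-positive Npy-low cells). Among genes tied to invasion, Fn1 (fibronectin, 50.3 against 13.9 CPM) and S100a4 (80.0 against 24.8 CPM) were at least 2-fold higher, while the mesenchymal factors Snai2, Zeb1 and Zeb2 had 0 UMIs and Vim was at 999 against 895 CPM.

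Of 8 measured Sox factors, a list written after values had been seen, 3 were at least 2-fold higher and 2 had ratios below 0. The median was 0.40. Sox11 was at 48.8 against 11.9 CPM (1.95) and Sox4 had a ratio of -0.51. Sox18, at 10.6 against 1.35 CPM (2.30), passed the 10 CPM minimum through Npy-positive cells alone. Etv5, a target of Fgf and Erk signalling, was at 81.3 against 12.7 CPM (2.59), but it was the only one of 8 measured members of its list past 2-fold, and the feedback genes Dusp6 and Spry2 had ratios of 0.04 and 0.12. Of 14 stress and immediate early genes, Jun was at 2258 against 1041 CPM (1.12, and 0.99 against Nkd1-positive Npy-low cells) and Hspa1a at 6.57 against 18.4 CPM (-1.36, and -0.79), with a median of -0.10 over the list. Of 9 measured ephrins and Eph receptors, Ephb3 was at least 2-fold higher (not so against Nkd1-positive Npy-low cells) and Efna4 at least 2-fold lower (17.4 against 57.4 CPM).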
